A study of Homo sapiens with 24 samples.

Results

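The comparison described here is the genotype by inhibitor interaction in HCT116, a human colon cancer cell line. It asks of every gene how much the response to the PTDSS1 inhibitor DS07551382 in cells without PTDSS2 differs from the response in the parent cells. It rests on the 12 HCT116 libraries of the 24 in the series; the other 12 come from A375, a melanoma line. The 12 form 4 groups of 3: parent cells with the vehicle DMSO, parent cells with DS07551382, the knockout clone PTDSS2-KO#3 with DMSO, and the same clone with DS07551382. The inhibitor was given at 0.1 µM and all cells were exposed for 24 h. The parent carries both synthase genes, and the knockout is 1 clone, so what is particular to that clone and what follows the loss of PTDSS2 cannot be told apart. Whether the 3 libraries of a group are separate cultures is not in the labels, and the p-values given below cover the spread among libraries alone.

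Phosphatidylserine is made in the endoplasmic reticulum (ER) by swapping the head group of an existing phospholipid for serine. PTDSS1 starts from phosphatidylcholine and PTDSS2 from phosphatidylethanolamine, and either enzyme can supply many cultured cells. The product is carried to the plasma membrane, where flippases keep it on the inner face, and to mitochondria, where PISD converts it to phosphatidylethanolamine.

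The values are gene expected counts, given as counts per 1e6 (CPM) after scaling of the libraries. Summed marker levels, and the levels of ITGB8, ANXA3 and JAM3 in the comparison with A375, are instead per 1e6 of the library totals, without that scaling. In units of 1e6 counts the library totals ran from 6.21 to 10.0. Knockout cells with inhibitor were the shallowest group at 6.89 ± 0.901 (SD, n = 3), against 9.0 ± 0.148 for the knockout in DMSO, 9.63 ± 0.332 for the parent in DMSO and 8.71 ± 0.723 for the parent with inhibitor. Epithelial markers were present: the summed level of 20 colon epithelium genes was 4022 to 4686 CPM across the 12 libraries. CDX1 and TFF3, markers of intestinal lineage and secretory cells, had 0 counts in every group, and at most 11 of the 20 markers reached 1 CPM in a group.

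PTDSS2 RNA checked the labels. It stood at 36.1, 33.1 and 37.8 CPM in the parent in DMSO, 39.4, 38.2 and 34.4 in the parent with inhibitor, 5.46, 6.42 and 7.91 in the knockout in DMSO, and 7.19, 4.87 and 5.07 in the knockout with inhibitor. All 6 knockout libraries lay below all 6 parent libraries. The interaction of PTDSS2 was -0.25 ± 0.21 on the log2 scale (SE; 3 libraries per group; edgeR adjusted p = 0.4012) and did not pass the test.

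PTDSS1, the gene of the enzyme that the drug inhibits, had its lowest RNA levels where both synthases were affected. It measured 129.6, 125.0 and 120.9 CPM in the parent in DMSO and 129.3, 129.5 and 127.5 in the parent with inhibitor. In the knockout it measured 108.2, 107.9 and 109.2 CPM in DMSO and 79.6, 81.2 and 76.4 with inhibitor. The 3 groups other than the knockout with inhibitor held 107.9 CPM or more, and its 3 libraries held 81.2 or less. The knockout was 0.21 ± 0.04 below the parent in DMSO and 0.70 ± 0.05 below it with inhibitor, an interaction of -0.50 ± 0.06 (edgeR adjusted p = 5.035e-08). In bulk RNA, fewer cells of a kind and less RNA per cell cannot be told apart. PISD moved the other way, with 52.2 to 53 CPM in the knockout in DMSO and 62.3 to 68.1 with inhibitor, an interaction of 0.35 ± 0.09 (edgeR adjusted p = 0.00173).

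Of 13164 genes tested, 3217 (24.4%) passed the interaction test at an adjusted p under 0.05. The inhibitor effect in the knockout was the more positive for 1437 genes (10.9%) and the more negative for 1780 (13.5%). Changes of at least 2-fold lay mostly on the positive side, with 210 genes up (1.60%) and 37 down (0.281%). In the knockout the inhibitor changed 4815 genes (36.6%). In the parent edgeR called 0 genes (0.00%), with 550 (4.18%) at an unadjusted p under 0.05, 1 called by DESeq2 and 0 by limma-voom. Among the genes with an interaction, the median absolute inhibitor effect was 0.326 log2 units in the knockout and 0.045 in the parent. In 65 of them the effect in the parent was the larger of the pair.

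The interaction genes were sorted by what the knockout already looked like before the drug. In DMSO the knockout differed from the parent in 2801 genes (21.3%), 1377 higher (10.5%) and 1424 lower (10.8%). With inhibitor it differed in 6607 genes (50.2%), 3229 higher (24.5%) and 3378 lower (25.7%). Differences of at least 2-fold went from 80 higher and 101 lower genes (0.608% and 0.767%) to 453 and 161 (3.44% and 1.22%). Most of the interaction, 2238 genes or 69.6% of it, fell on genes with no called difference in DMSO (17.0% of genes tested). In 596 genes (4.53% of genes tested) the drug deepened a difference that was already there, 250 upward (1.90%) and 346 downward (2.63%). In 383 genes (2.91%) it opposed the difference, 215 upward (1.63%) and 168 downward (1.28%). DESeq2 called fewer: 937 rises in the interaction, 1798 differences in DMSO, 381 deepened and 221 opposed genes.

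The opposed genes ended in 3 states. The difference was narrowed but still called with the same sign in 33 genes (0.251%). It was closed in 193 (1.47%), meaning that no difference was called with inhibitor, which does not show equal levels. It was overturned in 157 (1.19%), where the knockout was on one side of the parent in DMSO and on the other with inhibitor, both called. DESeq2 gave 121 closed and 78 overturned genes. Of the 2801 differences in DMSO, 21.3% were deepened, 13.7% were opposed and 65.0% had no called interaction. The interaction and the difference in DMSO share the 6 DMSO libraries, and an error in those libraries pushes a gene toward the opposed class and away from the deepened one. The genotype differences in the 2 conditions share no library. Of 2132 genes called in both, 1975 kept their sign and 157 changed it.

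**Figure D1:**
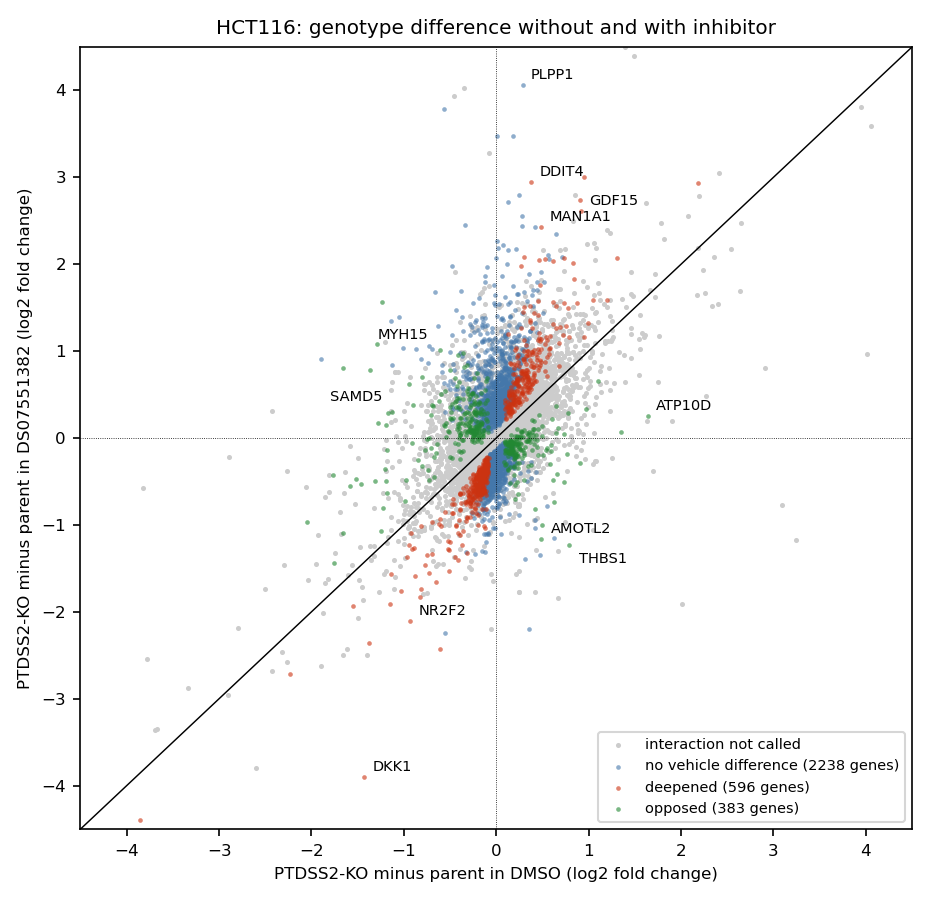
Each point is a gene, placed by its knockout minus parent difference in DMSO (horizontal, log2) and in DS07551382 (vertical, log2); points off the diagonal differ between conditions, and 29 genes beyond 4.5 on either axis, 6 of them called, are not drawn. Deepened genes (red, 596) lie farther from 0 than the diagonal, opposed genes (green, 383) between the diagonal and 0 or across it, and genes without a DMSO difference (blue, 2238) along the vertical.

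Genes with no called difference in DMSO included the steepest rises among the genes named here. PLPP1, a phosphatase that removes the phosphate of phosphatidic acid and related lipids, measured 6.23, 5.59 and 5.96 CPM in the parent in DMSO and 6.82, 6.46 and 7.37 with inhibitor. In the knockout it went from 6.44, 8.37 and 6.92 CPM in DMSO to 112.6, 119.7 and 113.1 with inhibitor. Its interaction was 3.78 ± 0.20 (edgeR adjusted p = 4.557e-20), and the 3 inhibited knockout libraries stood clear of the other 9. The parent in DMSO lay below the other groups, and the parent with inhibitor overlapped the knockout in DMSO; the genotype difference in DMSO was 0.28 ± 0.16 (edgeR adjusted p = 0.1993). CHAC1, which degrades glutathione, went from 1.42, 3.90 and 4.51 CPM to 27.1, 28.9 and 26.5 in the knockout and stayed between 1.59 and 3.27 in the parent, an interaction of 3.29 ± 0.37 (edgeR adjusted p = 1.548e-08). PCK2, the mitochondrial enzyme that makes phosphoenolpyruvate, went from 18.5, 15.6 and 13.0 CPM to 72.3, 75.4 and 72.2, against 13.4 to 17.3 in the parent. SOCS1, an inhibitor of cytokine receptor signalling, held 1.06 to 2.29 CPM in the other 9 libraries and 15.1 to 19.3 in the inhibited knockout. The adhesion receptor CD44, a far more abundant transcript, held 441 to 491 CPM in the other 9 libraries and 968, 974 and 980 there, an interaction of 1.03 ± 0.04.

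The other named rises of this class had the same form. They were FGFBP1, a secreted carrier of fibroblast growth factors, at 2.78 ± 0.26, TSC22D3, a leucine zipper protein induced by glucocorticoids, at 2.55 ± 0.24, and SLC1A4, a transporter of alanine, serine and cysteine, at 2.17 ± 0.24. For all 3 the inhibited knockout held at least 20.8 CPM in each library and no other library exceeded 6.63.

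Among the genes that the rule took from this class, with a mean of at least 8 CPM, the falls were smaller, about 1 log2 unit at their steepest. NMT2, which attaches myristate to proteins, measured 49.2 to 58.5 CPM in the other 9 libraries and 24.5, 27.0 and 25.5 in the inhibited knockout, an interaction of -1.16 ± 0.10 (edgeR adjusted p = 7.822e-13). CRIM1, a membrane protein that binds bone morphogenetic proteins, measured 74.3 to 80.8 CPM and 40.3, 39.1 and 35.2, an interaction of -1.0 ± 0.08. The mitotic kinase NEK6 measured 43.0 to 49.2 CPM and 23.3, 24.5 and 22.8. SUSD2, TBC1D2, which inactivates the small GTPase Rab7, and HAUS7, a subunit of the augmin complex of the spindle, had interactions of -1.10 ± 0.19, -1.09 ± 0.17 and -1.02 ± 0.16. In each of these 6 genes, picked for their large interactions, the inhibited knockout lay below the other 9 libraries. It did so in 1511 of the 3217 interaction genes and lay above them in 1131. Over all 13164 genes tested these counts were 2312 and 1998.

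Among deepened genes, the drug added to a step that the knockout had already taken. DKK1, a secreted antagonist of Wnt signalling, measured 278.6, 280.1 and 260.2 CPM in the parent in DMSO and 276.0, 288.4 and 282.1 with inhibitor. In the knockout it measured 95.1, 107.2 and 102.3 CPM in DMSO and 18.2, 20.7 and 17.8 with inhibitor. The knockout was thus 1.43 ± 0.04 log2 units below the parent in DMSO and 3.90 ± 0.06 below it with inhibitor, an interaction of -2.47 ± 0.08 (edgeR adjusted p = 1.058e-26). The nuclear receptor gene NR2F2 went down the same staircase, from 186 to 198 CPM across the 6 parent libraries to 97.7 to 105.0 in the knockout in DMSO and 41.5 to 47.3 with inhibitor, an interaction of -1.17 ± 0.07. ITGB8, the beta 8 integrin subunit, was less abundant, at 11.1 to 21.6 CPM in the parent, 10.7 to 12.8 in the knockout in DMSO and 2.13 to 3.49 with inhibitor. In DMSO the parent libraries held 13.7 to 21.6 CPM, above those of the knockout, and the difference was called (-0.61 ± 0.16, edgeR adjusted p = 0.01152). The parent with inhibitor, down to 11.1 CPM, overlapped the knockout in DMSO. ENC1, an actin-binding protein, SYTL3, an effector of the secretory GTPase Rab27, and MOSPD1 had interactions of -1.02 ± 0.09, -1.0 ± 0.08 and -0.99 ± 0.11.

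Upward, the deepened class was led by a secreted protein and by stress genes. MAMDC2, an extracellular matrix proteoglycan, measured 1.40 to 2.01 CPM in the parent, 8.41, 8.02 and 8.13 in the knockout in DMSO and 55.3, 60.5 and 59.6 with inhibitor, an interaction of 3.04 ± 0.33 (edgeR adjusted p = 5.315e-10). DDIT4, which restrains the growth kinase complex mTORC1, measured 27.8 to 30.8 CPM in the parent, 38.1, 37.8 and 38.5 in the knockout in DMSO and 223.6, 214.9 and 238.3 with inhibitor. Its difference went from 0.38 ± 0.07 to 2.94 ± 0.06, an interaction of 2.56 ± 0.10 (edgeR adjusted p = 1.214e-25). MAN1A1, a mannosidase that trims glycans in the Golgi, measured 59.9 to 67.0 CPM in the parent, 83.3 to 90.2 in the knockout in DMSO and 328 to 356 with inhibitor, an interaction of 1.94 ± 0.07. For these 3 genes the knockout in DMSO lay between the parent and the inhibited knockout with no overlap. CORO6, a coronin of the actin cytoskeleton, and IGFBP2, which binds insulin-like growth factors, had interactions of 2.05 ± 0.21 and 1.71 ± 0.06.

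Opposed genes stood on one side of the parent before the drug and moved toward or past it. DUSP4, a phosphatase that switches off MAP kinases, measured 155.8, 155.4 and 158.1 CPM in the parent in DMSO and 148.4, 153.9 and 154.7 with inhibitor. In the knockout it measured 115.3, 120.9 and 116.6 CPM in DMSO and 289.3, 289.2 and 306.0 with inhibitor. The knockout was 0.41 ± 0.04 below the parent in DMSO and 0.95 ± 0.04 above it with inhibitor, an overturned difference with an interaction of 1.36 ± 0.06 (edgeR adjusted p = 1.627e-24). The cytokine LIF followed the same course, with 83.7 to 97.0 CPM in the parent, 65.2 to 74.5 in the knockout in DMSO and 148.5 to 157.6 with inhibitor. MYH15, a myosin heavy chain, went from 0.61 ± 0.08 below the parent to 1.02 ± 0.07 above it, and the stress-responsive gene NDRG1 from 0.31 ± 0.06 below to 0.85 ± 0.05 above. NIBAN1, another stress-induced gene, was overturned likewise (interaction 1.34 ± 0.15). SAMD5 rose only a little past the parent, from -1.12 ± 0.13 to 0.30 ± 0.11, with levels of 18.1 to 23 CPM that overlapped the parent's 13.8 to 18.6.

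In the opposite direction, genes raised in the knockout fell to below the parent. THBS1, a secreted matrix glycoprotein, measured 19.8 to 27.7 CPM in the parent, 35.0, 39.0 and 37.0 in the knockout in DMSO and 11.6, 11.1 and 8.72 with inhibitor, an interaction of -2.02 ± 0.15 (edgeR adjusted p = 2.537e-14). AMOTL2, an angiomotin that binds the coactivator YAP, measured 61.7 to 70.4 CPM, then 87.8, 93.5 and 92.5, then 25.7, 32.6 and 31.7 in the same order of groups. CCN1, a matricellular protein, ID2, which blocks basic helix-loop-helix factors, and MACC1, a colon cancer metastasis gene, were overturned too, with interactions of -1.50 ± 0.15, -1.24 ± 0.09 and -1.24 ± 0.14. ATP10D, of the P4-ATPase family of lipid flippases, ended near the parent instead: it measured 9.26 to 12.2 CPM in the parent, 31.5, 32.9 and 32.0 in the knockout in DMSO, and 12.6, 12.5 and 13.8 with inhibitor. Its difference of 1.64 ± 0.10 in DMSO was 0.25 ± 0.13 with inhibitor (edgeR adjusted p = 0.12).

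**Figure D2:**
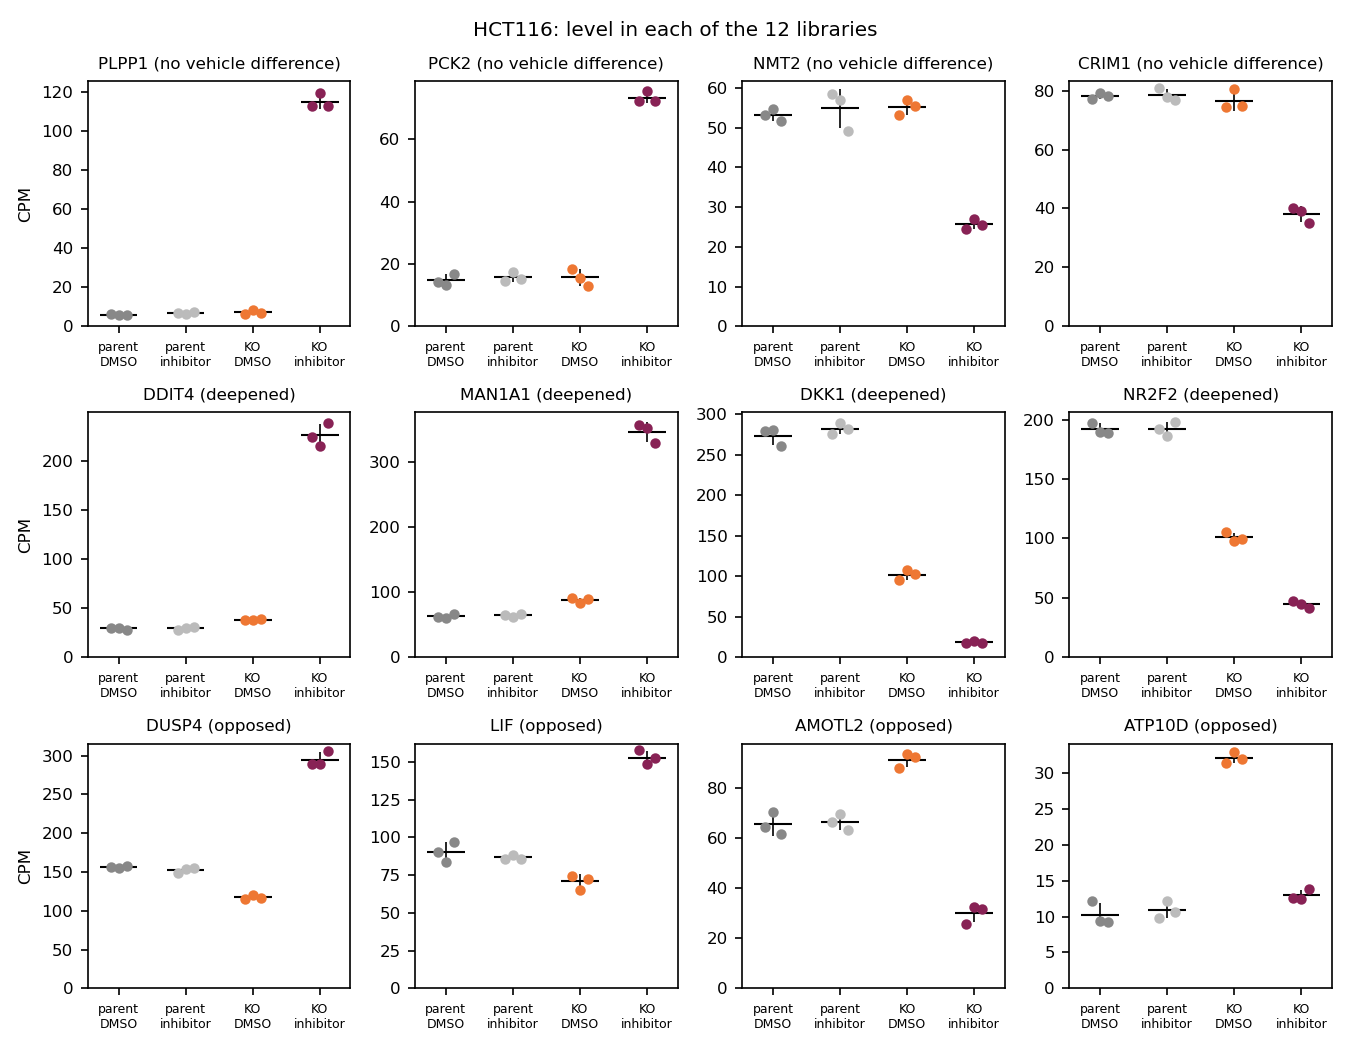
Levels in CPM of 12 genes, 4 from each class, in each of the 12 libraries (points), with the mean (line) and SD (bar) of each group of 3; every vertical axis starts at 0 and has its own scale. The knockout in DMSO stands at 6.44 to 8.37 CPM for PLPP1 against 5.59 to 6.23 in the parent in DMSO, stands below it on the way to the inhibited level for DKK1 (95.1 to 107.2 CPM), and stands on the far side of it for DUSP4 (115.3 to 120.9 CPM).

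The gene lists below are described by how many members passed the interaction test, to be read against 10.9% of all genes up and 13.5% down and a median interaction of 0.002. No test of a list was made. The integrated stress response is the program that the transcription factor ATF4 drives when the translation factor eIF2 is phosphorylated. Of its 41 tested members, 34 were up and 1 down, with a median interaction of 0.72. The split by class was 22 with no difference in DMSO, 10 deepened and 3 opposed. In DMSO 10 members were higher and 4 lower in the knockout (median 0.05), and with inhibitor 35 were higher and 1 lower (median 0.77). ATF4 itself (0.72) and its targets ATF3 (1.03) and GDF15 (1.69) were deepened, whereas DDIT3, which encodes CHOP (1.81), TRIB3 (1.42) and the cystine transporter SLC7A11 (2.07) had no called difference in DMSO. The single fall was ALDH18A1 (-0.27), a proline synthesis enzyme.

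ASNS and GDF15 show the deepened form. Asparagine synthetase ASNS measured 69.6 to 76.8 CPM in the parent, 83.8, 89.5 and 85.5 in the knockout in DMSO, and 303.6, 316.6 and 299.8 with inhibitor, an interaction of 1.78 ± 0.07 (edgeR adjusted p = 1.748e-25). GDF15, a secreted stress cytokine, measured 47.3 to 56.1 CPM, then 95.3 to 102.6, then 299 to 334. SLC7A11 shows the other form, with 57.7 to 62.7 CPM in the parent, 54.2 to 57.5 in the knockout in DMSO and 233.8, 251.3 and 245.5 with inhibitor. The opposed members were the amino acid transporter SLC38A2, overturned from -0.31 to 0.30, and the closed differences of WARS1, a tRNA synthetase, and XPOT, a tRNA exporter.

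Some genes of this list share a short promoter sequence. The core of the C/EBP-ATF element, the site class of ATF4, was searched as TGATGNAA on both strands in RefSeq promoters of GRCh38.p14, from 250 bases before to 50 after each listed start. It was found for 11 of 33 list members with a sequence (33.3%), against 2.61% of 10506 tested genes with one. The 11 were ASNS, ATF3, CARS1, CEBPG, CHAC1, GARS1, JDP2, SLC1A4, SLC1A5, SLC3A2 and SLC7A1, and all of them were up. By class, a match was found for 12 of 193 deepened genes that rose (6.22%). It was found for 34 of 776 rising genes without a difference in DMSO (4.38%) and 3 of 167 opposed genes that rose (1.80%). These counts include the 11 list members, so they are not separate from the list's share. Among genes that fell a match was found for 4 of 138 opposed genes (2.90%) and 18 of 1041 without a difference in DMSO (1.73%). For deepened genes that fell it was 2 of 286 (0.699%), and several of these shares rest on few genes. A match describes letters and does not show binding. The windows of 2 of the genes with the full values above are shown 5′ to 3′ on the gene's strand, with the match in capitals. That of CHAC1 (chr15:40953237-40953294, plus strand) holds it on the opposite strand and begins 209 bases before the start; that of ASNS (chr7:97872444-97872501, minus strand) begins 68 bases before it and overlaps a match to the heat shock core GAANNTTC.
CHAC1: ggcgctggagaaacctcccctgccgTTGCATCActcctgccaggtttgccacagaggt
ASNS: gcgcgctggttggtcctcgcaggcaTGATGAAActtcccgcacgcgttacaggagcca

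Cholesterol synthesis and uptake was the list with the largest share of overturned members among the 32 lists described. Of 25 tested genes 18 were up in the interaction and 0 down, with a median of 0.47. Only 6 of the 18 lacked a difference in DMSO, 1 was deepened and 11 were opposed, 9 of them overturned. Before the drug 12 of the 25 genes were lower and 1 higher in the knockout (median -0.14), and with it 18 were higher and 3 lower (median 0.34). Overturned genes lay along the pathway, among them HMGCS1, MVD and IDI1 of the mevalonate steps, SQLE and CYP51A1 further down, ACAT2, and INSIG1, a sterol-responsive protein of the ER membrane. SQLE, squalene epoxidase, measured 102.0, 101.3 and 87.1 CPM in the parent in DMSO, 84.4, 88.7 and 88.7 with inhibitor, 80.0, 78.9 and 80.3 in the knockout in DMSO, and 126.9, 120.8 and 115.8 with inhibitor. The knockout libraries in DMSO were the lowest of the 12 and those with inhibitor the highest, and the interaction was 0.76 ± 0.07 (edgeR adjusted p = 3.687e-11).

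Other members of the pathway behaved differently before the drug. TM7SF2, a sterol reductase, was already 0.87 above the parent and reached 1.56. The difference of DHCR7, another reductase, was closed. SREBF2, the transcription factor of the pathway, measured 190 to 223 CPM in the 9 other libraries and 322.4, 322.1 and 323.2 in the inhibited knockout, an interaction of 0.66 ± 0.05. Among 14 fatty acid synthesis genes 8 were up and 0 down: SCD, the stearoyl desaturase (0.59 ± 0.04), and SREBF1 (0.80 ± 0.05) were overturned, and the desaturase FADS1 (0.63 ± 0.07) was deepened. The difference of SREBF1 in DMSO was small, at -0.11 ± 0.04, and close to the limit of a call (edgeR adjusted p = 0.04027). Its knockout libraries in DMSO, at 190.6 to 200.2 CPM, overlapped the parent with inhibitor, at 194.1 to 207.2. SREBF2 held the only match of the cholesterol list to the sterol regulatory element TCACNCCAC, searched on both strands (1 of 18 members with a sequence, 5.56%, against 1.41% of tested genes). It begins 133 bases before the start on the gene's own strand (chr22:41832947-41833005, plus strand of GRCh38.p14), with the match in capitals.
SREBF2: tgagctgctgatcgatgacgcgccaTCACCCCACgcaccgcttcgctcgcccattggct

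Heat shock chaperones fell. Of 28 heat shock proteins and chaperonin subunits, 24 were down in the interaction and 1 up (DNAJB4, 0.49), with a median of -0.31. The differences in DMSO were mostly small and of the same sign: 12 members were lower in the knockout and 2 higher, and 11 of the list were deepened, 13 had no difference in DMSO and 1, BAG3, was overturned. HSPA8, the constitutive HSP70, measured 3073 to 3295 CPM in the parent, 2859 to 3008 in the knockout in DMSO and 1841, 1854 and 1799 with inhibitor, an interaction of -0.71 ± 0.04 (edgeR adjusted p = 5.679e-19). HSPH1, its exchange factor, measured 464 to 497 CPM, then 365 to 386, then 241 to 258. DNAJA1, an HSP40 partner, had no called difference in DMSO and an interaction of -0.62 ± 0.05. HSPA1A and HSPA1B, at -1.0 and -0.92, are near-identical copies whose reads cannot be assigned with certainty. All 8 listed subunits of the chaperonin that were called, from CCT2 to TCP1, stood between -0.12 and -0.38.

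The heat shock element core, GAANNTTC, reads the same on both strands and was found for 12 of 26 members with a sequence (46.2%), against 6.35% of tested genes. The 12 included HSP90AB1 (-0.09) and HSPB1 (0.04), which were not called. The windows of HSPA8 (chr11:123062334-123062386, minus strand) and DNAJA1 (chr9:33025050-33025107, plus strand) on GRCh38.p14 begin their matches 230 and 198 bases before the start. Each gene held a further match within the bases searched.
HSPA8: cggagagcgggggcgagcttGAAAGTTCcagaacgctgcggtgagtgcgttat
DNAJA1: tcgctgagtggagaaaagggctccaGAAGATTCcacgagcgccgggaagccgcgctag

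Ribosome biogenesis genes, which process ribosomal RNA in the nucleolus, fell in 26 of 29 cases with 0 up and a median of -0.25. Of the 26, 13 were deepened and 13 had no difference in DMSO; in DMSO 15 members were lower and 0 higher, and with inhibitor all 29 were lower. UTP4, of the small subunit processome, measured 182 to 198 CPM in the parent, 168 to 177 in the knockout in DMSO and 124.9, 124.4 and 124.3 with inhibitor, an interaction of -0.50 ± 0.06 (edgeR adjusted p = 1.841e-09). BOP1 and LYAR, with interactions of -0.46 ± 0.06 and -0.56 ± 0.07, were deepened as well. Of 32 cytosolic ribosomal protein genes, 6 were up, all of them deepened, 0 were down and 26 did not pass the test (median 0.06); RPL3 led at 0.23 ± 0.04. That count ran from 2 to 10 when a library was left out, at 2 without parent DMSO replicate 2, parent inhibitor replicate 1 or 3, knockout DMSO replicate 1 or 3, or knockout inhibitor replicate 1, at 3 without parent DMSO replicate 1, and at 10 without knockout DMSO replicate 2.

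Targets of YAP and SRF, coactivator and factor of genes that respond to adhesion and the cytoskeleton, were down in 17 of 26 cases and up in 2 (median -0.37). This list held all 3 classes: 7 with no difference in DMSO, 5 deepened and 7 opposed, 6 of them overturned. The overturned genes were THBS1, AMOTL2 and CCN1, given above, with CCN2 (from 0.63 to -0.73), AXL (from 0.77 to -0.18) and AJUBA (from 0.27 to -0.23). AXL, a receptor tyrosine kinase, measured 97.7 to 110.2 CPM in the parent, 167.9, 184.6 and 171.2 in the knockout in DMSO and 94.4, 94.1 and 101.3 with inhibitor, so that the inhibited knockout overlapped the parent at the lower edge. F3, tissue factor, went the deepened way, from -1.55 to -1.94. NT5E, an ecto-nucleotidase, was among the 2 members that were up: 1.31 below the parent in DMSO and 0.49 below it with inhibitor.

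Targets of p53 were often raised before the drug. In DMSO 17 of 26 were higher in the knockout and 0 lower (median 0.26), and with inhibitor 22 were higher and 2 lower (median 0.47). The interaction was up in 10 and down in 2 (median 0.22), of which 8 were deepened, 4 had no difference in DMSO and 0 were opposed. CDKN1A, the p21 cell cycle inhibitor, went from 0.41 to 0.64, and MDM2, a ubiquitin ligase, from 0.43 to 0.65. BBC3, a death-promoting BCL2 relative, measured 10.3 to 14.5 CPM in the parent, 17.4, 20.9 and 20.3 in the knockout in DMSO and 34.2, 37.9 and 36.3 with inhibitor. GDF15 and SESN2 stand on both this list and that of the integrated stress response. TIGAR and AEN were the members that fell.

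**Figure D3:**
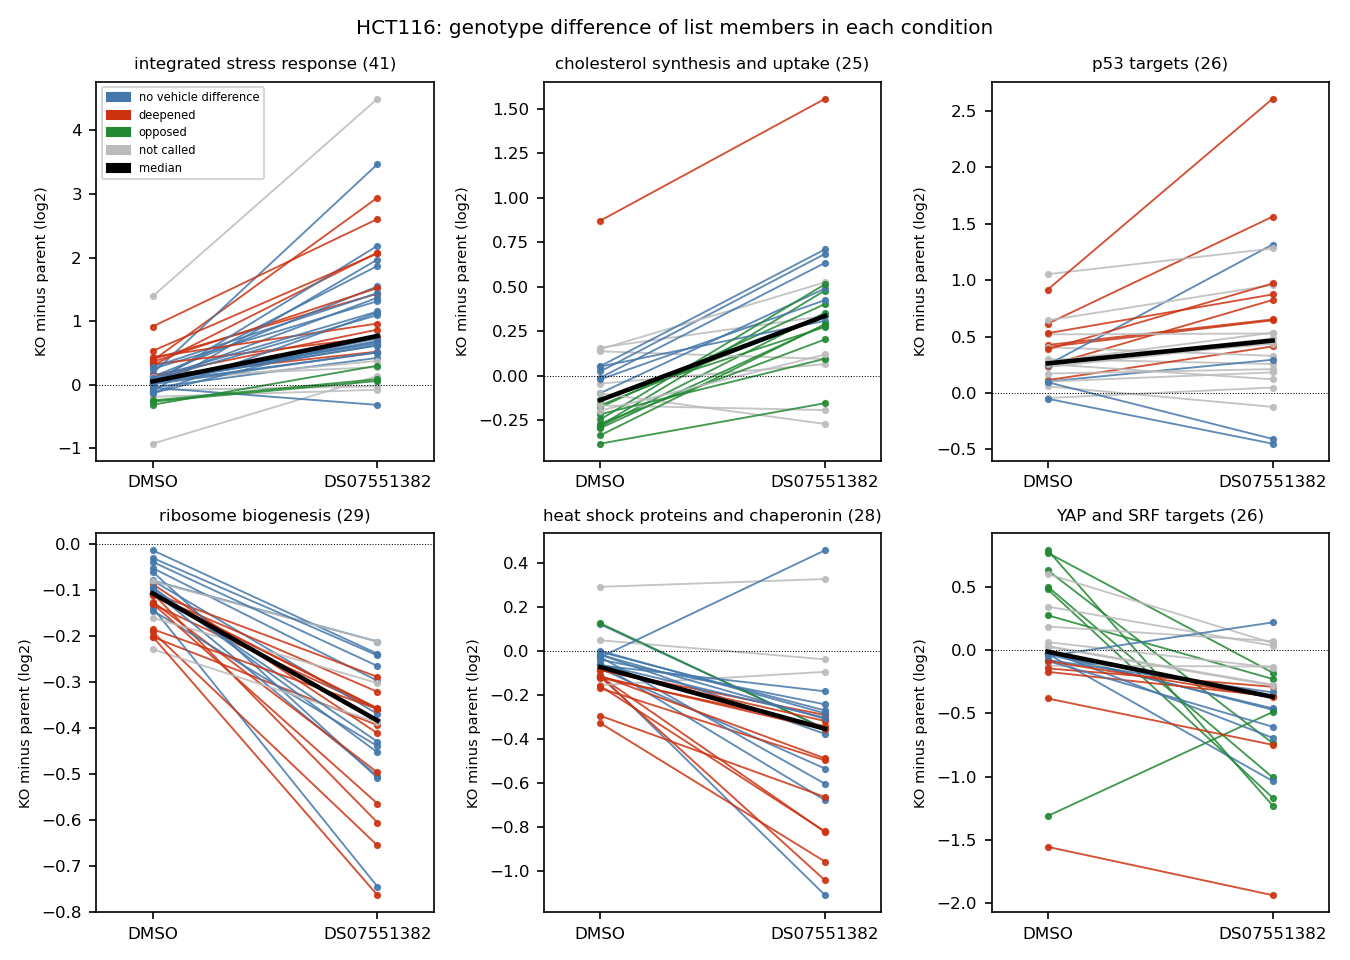
Knockout minus parent difference (log2) of each tested member of 6 gene lists in DMSO (left) and DS07551382 (right), coloured by class, with the list's median in black; the vertical axes differ between panels. The cholesterol median crosses from -0.14 to 0.34, the integrated stress response median leaves 0 for 0.77, and the p53 median climbs from 0.26 to 0.47.

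Signalling genes moved in both directions. Of 24 immediate early genes, the first transcripts made after a stimulus, 16 were up and 2 down (median 0.67). JUND was deepened, from 73.6 to 77.5 CPM in the parent to 92.3 to 96.7 and 196.6 to 227.9 in the knockout, NR4A2 (1.99 ± 0.18) and IER3 (0.67 ± 0.05) had no difference in DMSO, and KLF2, KLF6 and KLF10 were overturned. FOSL1, from -0.70 to -1.33, and MYC, from -0.20 to -0.66, were the falls, both deepened. MAP kinase feedback genes split, with 8 up and 6 down of 25 and 7 opposed, 4 of them overturned: DUSP4 and LIF as above, the growth factor AREG upward, and the cell cycle gene CCND1 downward. CCND1, cyclin D1, measured 952 to 988 CPM in the parent, 1050 to 1112 in the knockout in DMSO and 689, 680 and 678 with inhibitor, an interaction of -0.67 ± 0.04 (edgeR adjusted p = 6.51e-18).

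Unlike the cholesterol and fatty acid lists, phospholipid synthesis did not move as a block. Among 37 phospholipid synthesis genes 3 were up and 6 down (median 0.01). CHKA, which starts phosphatidylcholine synthesis, fell from 41.0 to 45.1 CPM in the knockout in DMSO to 25.4 to 26.3 with inhibitor (interaction -0.70 ± 0.11, edgeR adjusted p = 1.141e-06). GPAM, the first enzyme of glycerolipid synthesis, was deepened from -0.39 to -0.83, and the phosphatidic acid phosphatase LPIN1 was overturned from -0.35 to 0.28. Of 26 genes listed for phosphatidylserine transport, flipping and scrambling 8 were up (5 by DESeq2) and 2 down (median 0.22). The list holds family members that need not act on phosphatidylserine. PLSCR4, a scramblase relative, was at 1.22 and the flippase relative ATP9A at 0.58 ± 0.10. ATP8B3 was overturned upward (from -0.45 to 0.69), while ATP10D and SERINC2 were the falls; SERINC2 was overturned from 0.30 ± 0.05 to -0.48 ± 0.06.

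Genes of the ER itself were divided. Of 28 ER chaperones and degradation factors 6 were up and 6 down, with a median of 0.001, and 11 of the 12 had no difference in DMSO. XBP1, a transcription factor of the unfolded protein response, was up by 0.59 ± 0.09. DNAJC3, a co-chaperone, was at -0.48 ± 0.07, and calreticulin (CALR) measured 827 to 917 CPM in the other 9 libraries and 745, 735 and 714 in the inhibited knockout. ER to Golgi transport had 3 of 30 up, among them the coat subunit COPA (0.27 ± 0.05), and 5 down, among them the coat GTPase SAR1B (-0.45 ± 0.09). The 5 falls became 1 without parent inhibitor replicate 2 or knockout DMSO replicate 2. They became 2 without parent DMSO replicate 2 or 3, parent inhibitor replicate 1 or knockout inhibitor replicate 3, 3 without knockout DMSO replicate 1 or knockout inhibitor replicate 2, and 2 by DESeq2.

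Proliferation, lysosome and redox lists moved by smaller steps. DNA replication had 0 of 33 up and 16 down (10 by DESeq2; median -0.17), with MCM10 at -0.46 ± 0.07, and of 33 mitosis genes 13 were down and 3 up (median -0.05). The 3, named for their direction after their values were seen, were the phosphatase CDC25B (0.46 ± 0.05), CENPF (0.13 ± 0.05) and TOP2A (0.13 ± 0.05). That count of 3 was 1 by DESeq2 and 1 without parent DMSO replicate 2, parent inhibitor replicate 1 or 2, knockout DMSO replicate 2, or knockout inhibitor replicate 1. Of 33 lysosome and autophagy genes 12 were up and 2 down, with the protease CTSB at 0.62 ± 0.05 and the cargo receptor SQSTM1 at 0.55 ± 0.05, both deepened; the falls were NPC2 (-0.40 ± 0.09) and ATP6V1H (-0.33 ± 0.11), and DESeq2 called 1. NRF2 targets had 11 of 22 up and 1 down. The 29 tested genes of hypoxia and glycolysis split into 7 up and 7 down: the glucose transporter SLC2A1 was deepened (-0.77 ± 0.06) and VEGFA was up (0.78 ± 0.09) with no difference in DMSO. 

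**Figure D4:**
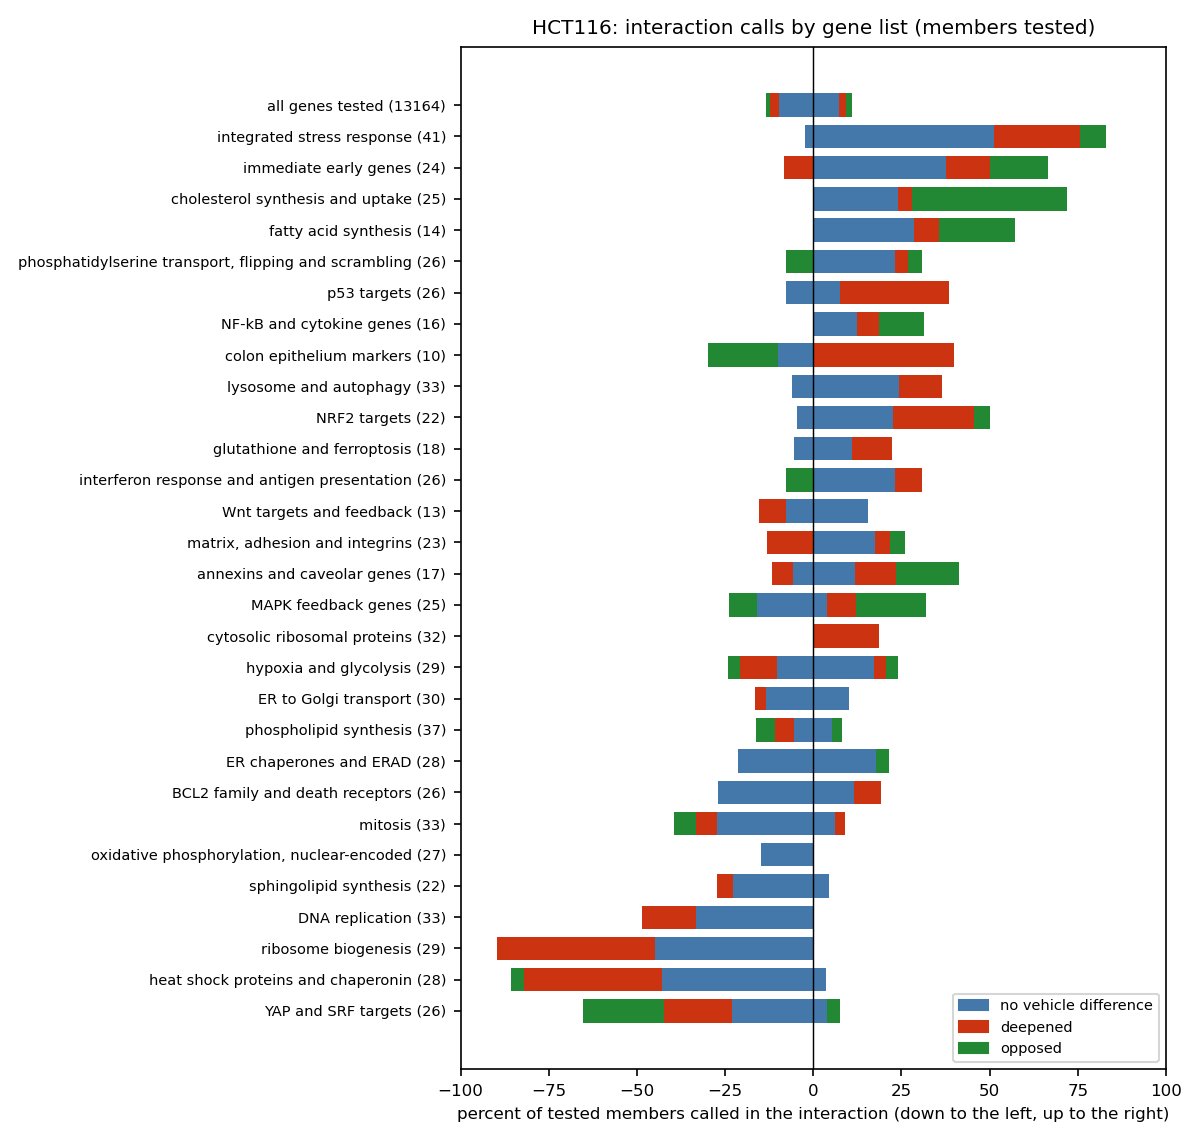
For each gene list with at least 10 tested members (number in brackets) and for all genes tested, the bars give the percent of members called down (left) and up (right) in the interaction, coloured by class. The integrated stress response (34 of 41 up) and cholesterol (18 of 25 up) lists extend farthest to the right, and ribosome biogenesis (26 of 29 down) and heat shock (24 of 28 down) farthest to the left.

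Marker lists moved along with these changes. The summed CPM of 20 colon epithelium genes was 4081 to 4211 in the parent, 4400 to 4686 in the knockout in DMSO and 4022 to 4137 in the knockout with inhibitor. Of 10 tested, 4 were up and 3 down: ELF3, an epithelial transcription factor, was deepened (1.42 ± 0.09), and the keratins KRT8 (-0.36 ± 0.04) and KRT18 (-0.46 ± 0.05) fell. The summed level of 17 melanoma lineage genes was 81.4 to 86.5 CPM in the parent and 129 to 139 in the inhibited knockout. It rested mainly on genes that are not restricted to pigment cells, ERBB3 and CSPG4, and TYR, S100B, PAX3 and RXRG had 0 counts in every group. The summed level of 14 mesenchymal genes was 33.4 to 39.7 CPM in the parent in DMSO and 30.7 to 34.8 with inhibitor. In the knockout it was 27.6 to 31.3 CPM in DMSO and 36.3 to 39.1 with inhibitor, with no overlap between the knockout's groups. The part of these shifts in the results above was not tested.

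A375, which shares no library with HCT116, gave the same contrast in another cell type, with its own PTDSS2 knockout clone. Its interaction called 3615 of 13455 genes (26.9%), 1752 up (13.0%) and 1863 down (13.8%). Of the 3067 HCT116 interaction genes that could be tested there, 1205 were called with the same sign and 177 with the opposite sign. For genes without a difference in DMSO these counts were 772 and 108 of 2140, for deepened genes 293 and 38 of 568, and for opposed genes 140 and 31 of 359. The classes here are those of HCT116, and only the sign of the interaction was compared, not the class in A375. The difference between the 2 interactions, tested over all 24 libraries, was called for 1542 of 14637 genes (10.5%), 693 more positive in HCT116 (4.73%) and 849 more negative (5.80%). These 12 and 12 libraries also differ in cell line and clone, which cannot be told apart.

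Some lists had like medians in both lines and others did not. The heat shock list had a median interaction of -0.31 in HCT116 and -0.30 in A375 with 24 falls in each, ribosome biogenesis -0.25 and -0.26, and cholesterol 0.46 and 0.51 over the 24 members tested in both. Like medians did not mean that single members were alike. Of the 24 cholesterol genes 2 were more positive and 5 more negative in HCT116, and of 28 heat shock genes 3 and 5. For the 29 ribosome biogenesis genes these counts were 1 and 4. Over all 12003 genes tested in both lines 680 were more positive and 846 more negative. The integrated stress response had a median of 0.72 in HCT116 and 0.30 in A375, and 22 of 41 members were more positive in HCT116 and 2 more negative. The ER lists had the contrary order: 21 of 28 ER chaperones and 26 of 30 ER to Golgi genes were more negative in HCT116 and 0 more positive, with A375 medians of 0.48 and 0.38. DNAJC3 was at 0.42 in A375 against -0.48 in HCT116, a difference of -0.91. The mitosis list was lower in A375, with a median of -0.35 there, and 16 of 33 members were more positive in HCT116. Of 17 annexin and caveolar genes, 5 were called with opposite signs in the 2 lines and 3 with the same sign, and 6 were more positive in HCT116 and 0 more negative. Of those with opposite signs, caveolin 1 (CAV1) was at 0.40 ± 0.04 in HCT116 and -1.26 in A375, and ANXA2 at 0.35 ± 0.04 and -0.31.

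Single genes of the HCT116 classes also differed between the lines. PLPP1, the steepest rise, was at 3.78 in HCT116 and 0.37 in A375, and IGFBP2 at 1.71 and -0.40, both called as different (3.40 and 2.10). ITGB8 was opposite in sign, at -1.82 in HCT116 and 1.21 in A375, where it was far more abundant (107 CPM pooled over the knockout in DMSO, and 245 with inhibitor). NMT2, CRIM1 and TBC1D2 fell in both lines, at -1.16 and -1.27, -1.0 and -1.27, and -1.09 and -1.49. Their line differences were 0.10 ± 0.16, 0.26 ± 0.09 (edgeR adjusted p = 0.06077) and 0.39 ± 0.30. None was called, which does not show equal sizes. The differences of these genes in DMSO were not alike: none was called in HCT116, whereas the A375 knockout was above its parent by 0.51, 0.26 and 0.61, all called. DKK1 was deepened downward in HCT116, but in A375 its knockout was 0.82 above the parent in DMSO, with an interaction of -1.01. AMOTL2 (-1.64 and -0.97) and CCN1 (-1.50 and -2.18) fell in both lines with a called difference in size.

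**Figure D5:**
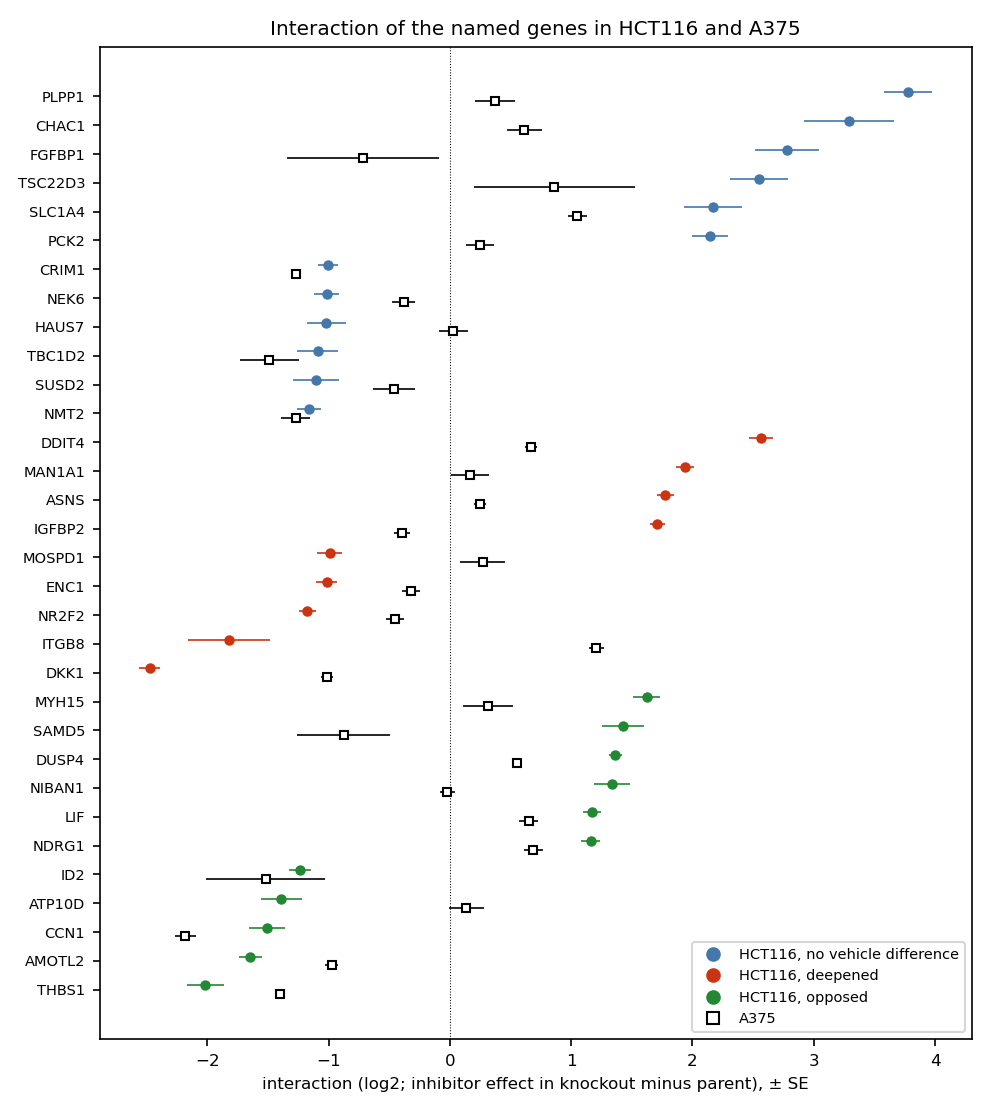
Interaction (log2, horizontal, bars are SE) of the 32 genes named by class that were tested in both lines, in HCT116 (filled circles, coloured by class) and A375 (open squares). PLPP1 (3.78 and 0.37) and ITGB8 (-1.82 and 1.21) stand far apart between lines, whereas NMT2 (-1.16 and -1.27) and CRIM1 (-1.0 and -1.27) lie close together.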

How the data were processed

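RNA from 12 HCT116 and 12 A375 libraries, 3 per group, was analysed. The submitters' processing notes name STAR 2.4.2a, RSEM 1.2.23 and the build hg19; the annotation release and the strandedness of counting are not given in those sources. The authors deposited expected counts for each gene, in which RSEM shares out reads that fit several genes, so overlapping and near-identical genes are uncertain. TPM and FPKM were not used. Of 25343 gene identifiers, 25220 matched a RefSeq symbol (GRCh38.p14); the 123 others held at most 0.0724% of a library. Coordinates and sequences come from the RefSeq table of GRCh38.p14, whereas the files use hg19.

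Counts were rounded, filtered (minimum count 10, minimum total 15) and scaled with TMM. Group means of the 12 libraries of a line were fitted with edgeR 4.0.16 in R 4.3.3; the line comparison used all 24. The quasi-likelihood F test was two-sided and robust, with Benjamini-Hochberg adjustment over all genes tested and calls at an adjusted p under 0.05; the calculations were tested on simulated data. Errors of log2 values are standard errors, the size divided by the square root of F. An interaction gene was deepened where its difference in DMSO was called with the same sign as the interaction, opposed where called with the other sign, and otherwise without difference.

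Genes named were PTDSS1, PTDSS2 and PISD, the 6 largest interactions of each class and direction with a mean of at least 8 CPM, the 5 largest overturned, up to 3 members of each of 32 lists with the smallest adjusted p, and the 5 largest line differences in each direction. Near-identical copies and unnamed loci were skipped. A few named genes and list members are not reported here. Further list members were named to account for the counts, after their values were seen. The members and lists were chosen with earlier results of these data known, so list counts are no independent evidence. Alternatives were other scaling (DESeq2 size factors, library size), no filter, a 5 CPM filter, DESeq2 1.42.0, limma-voom (limma 3.58.1), all 24 libraries, a replicate block, each library left out, an adjusted p under 0.01, a minimum of 0.5 log2 units, the linear scale and, chosen after seeing the data, thinning to the shallowest library.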

Additional observations from a re-analysis of the deposited data

Results flagged for a closer look

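The results in this section differed between HCT116 and A375 by a test of the difference itself, the HCT116 interaction minus the A375 interaction over all 24 libraries (edgeR, adjusted p under 0.05). In all 1542 genes were called, among them 65 of the 116 genes named by rule, 36 more positive in HCT116 and 29 more negative. Groups held 3 libraries, too few to look for single libraries that stand apart. Values below are that difference on the log2 scale.

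Among genes of the stress response and its surroundings, the interaction was more positive in HCT116 by 2.67 for CHAC1, 1.89 for DDIT4, 1.89 for PCK2, 1.52 for ASNS, 1.41 for GDF15, 1.35 for NIBAN1, 1.11 for SLC1A4, 0.97 for SLC7A11, 0.49 for GADD45A and 0.46 for NDRG1. All of these were up in HCT116, so that A375 showed a smaller or no rise. Signalling genes followed, with 0.80 for DUSP4, 0.79 for JUND and 0.51 for LIF. SOCS1 stood at 3.15 ± 1.05 (edgeR adjusted p = 0.04062). It did not pass the expression filter in the A375 libraries alone, so its difference is poorly measured. Lipid genes were divided: PLPP1 stood at 3.40, PISD at 0.58, SREBF1 at 0.45 and SGPL1 at 0.40, whereas PTDSS1 stood at -0.35, SERINC2 at -0.40, SREBF2 at -0.26, SCD at -0.20 and ATP10D at -1.53.

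Membrane and matrix genes included changes of opposite sign. The difference was 1.65 for CAV1, 0.65 for ANXA2, 1.27 for CD44 and 2.10 for IGFBP2, all up in HCT116 and down in A375 (CD44 at -0.25 there). It was -3.04 for ITGB8, -1.47 for DKK1, -0.73 for NR2F2, -0.70 for ENC1 and -0.30 for COL12A1. More positive in HCT116 were COL1A1 (1.64), FGFBP1 (3.48 ± 0.69), SAMD5 (2.30 ± 0.43), MAN1A1 (1.76) and MYH15 (1.30). The A375 interactions of FGFBP1 (-0.715 ± 0.629) and SAMD5 (-0.876 ± 0.383) had large errors and were not called. Among targets of YAP the line difference was -0.68 for AMOTL2, -0.63 for THBS1 and 0.67 for CCN1.

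ER and transport genes were more negative in HCT116: DNAJC3 by -0.91, GOLGA2 by -0.53, SAR1B by -0.47, CALR by -0.42 and COPA by -0.31. In HCT116 itself DNAJC3, SAR1B and CALR fell, whereas GOLGA2 and COPA rose in both lines and less in HCT116. The NF-kB genes NFKB2 (-0.91) and NFKBIA (-0.65), and the inhibitor of apoptosis BIRC3 (-2.56), were more negative in HCT116 too. NFKB2 rose in both lines, by 0.34 in HCT116 and 1.24 in A375, as did NFKBIA, by 0.66 and 1.29. BIRC3 was at 0.43 in HCT116, not called (edgeR adjusted p = 0.3075), and at 2.98 in A375. Redox and lysosome genes stood at -0.72 for SQSTM1, -0.30 for NQO1, -0.22 for TXNRD1 and 0.41 for CTSB, and all of these were up in both lines. Further named genes were HAUS7 (-1.06), MOSPD1 (-1.27), NEK6 (-0.65), SLC2A1 (-0.44), HSPH1 (-0.34), UTP4 (-0.23), CDC20 (0.43), CDC25B (0.37), RPS9 (0.21) and RPL3 (0.16).

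Other large differences rest on genes that one line hardly expresses. ANXA3, a membrane-binding protein, differed by 4.24 ± 0.70. It had 187 and 266 CPM in the HCT116 knockout in DMSO and with inhibitor, and 1.90 and 0.127 CPM in the A375 knockout, where the last is 4 counts over 3 libraries. MAMDC2 (5.97), PLEK2 (4.74) and JCAD (4.0) had 1 count each over the 3 inhibited A375 knockout libraries. NOS3 had 0 counts in 2 A375 groups, so no fold is given. OCLN (-2.75) and MEGF6 (-2.88) had 16 and 133 counts there. JAM3 (-1.70) was the reverse, with 15 counts over the inhibited HCT116 knockout libraries and 84.4 CPM in the A375 ones.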

How the results depend on the processing

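With DESeq2 there were 937 rises in the interaction, 1 call in the parent, 1798 differences in DMSO, 381 deepened, 221 opposed, 121 closed and 78 overturned genes. At an adjusted p under 0.01 there were 2006 interaction genes (859 up, 1147 down), 1772 differences in DMSO, 1478 genes without such a difference, 328 deepened and 200 opposed, of which 18 narrowed, 115 closed and 67 overturned. With a minimum of 0.5 log2 units 628 genes had no difference in DMSO, 45 were deepened and 63 opposed. The cause of these shifts was not tested, other than that the stricter limits admit fewer genes. Leaving out each library in turn gave 2695 to 3014 interaction genes, 436 to 564 deepened, 304 to 364 opposed and 113 to 146 overturned, and 0 to 2 calls in the parent. Those were 1 without parent DS07551382 replicate 1 or knockout DS07551382 replicate 2, and 2 without parent DS07551382 replicate 3. Thinned to the shallowest library, 2671 interaction, 434 deepened and 289 opposed genes were called. The line difference ran from 1354 to 1533 genes when a library was left out. No gene swapped between deepened and opposed in any of the 22 alternatives compared for the classes. A swap needs a called effect to reverse on largely the same libraries, so this says little. With DESeq2, 380 of 488 deepened and 218 of 294 opposed genes with a called interaction kept their class. The others lost the called difference in DMSO. Without parent DMSO replicate 2 the counts were 414 of 543 and 286 of 349. No interaction changed sign on the linear CPM scale. Of the named genes, H2AC6, RPL10A, SDHD and SPHK1 lost the call under at least 1 alternative.

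The replicate numbers showed at most a weak pairing of the libraries. Same-numbered libraries of different groups correlated at -0.072 to 0.122 in their deviations from the group mean, and differently numbered ones at -0.151 to 0.071. Of 18 same-numbered pairs 1 was over 0.1, and 6 of 12 libraries correlated best with their own number. With the replicate number as a block 3342 interaction genes, 646 deepened and 411 opposed genes were called, and 1583 line differences.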
